A study of Mus musculus with 14 samples.

Results

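Abundant structural and nuclear noncoding RNAs were followed in mouse bone marrow cells before and after transformation by the leukemia fusion gene MLL-AF9. The group was a fixed list of 9 genes out of the 52550 genes counted: Gm26917, Rn7sk, Rpph1, Rmrp, Terc, Rny1, Rny3, Malat1 and Neat1. They were chosen by name for their roles, when earlier results of these data were already known. All 9 had counts in all 14 libraries and all 9 passed the filter on low counts in every comparison, so no member was lost. The name of the group held for only some members. Gm26917, Rn7sk and Rpph1 ranked 1, 2 and 3 of all genes by mean share of counts in wild-type (WT) cells, whereas Terc ranked 3386, Neat1 4172, Rny3 11824 and Rny1 13238.

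The libraries were made from total RNA after depletion of ribosomal RNA, and came from 3 groups of cells on the C57BL/6 background. Hematopoietic stem and progenitor cells (HSPCs) were enriched with a commercial set of antibodies from leg bones of mice aged 8 to 20 weeks, either WT (4 libraries) or from mice in which the microRNA gene Mir139 had been deleted with a Cas9 nickase (Mir139KO, 4 libraries). Mir139 had 0 counts in all 14 libraries, so the genotype labels could not be checked from it. MLL-AF9 cells (6 libraries) were WT HSPCs that had received pMSCV-MLL-AF9-neo (replicates 1 to 3) or pMSCV-MLL-AF9-puro (replicates 4 to 6) from a retrovirus, were selected with the matching drug, and had been replated repeatedly in semi-solid medium, with hematopoietic cytokines. The fusion gene was thus driven by a retroviral promoter, and transformation, drug selection and culture cannot be told apart, because no culture of WT HSPCs without the fusion gene was included. The labels do not state for each HSPC sample whether it was lysed at once or expanded, nor whether replicates were separate mice or separate transductions, so p-values measure the spread between these samples, which may in part be technical.

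These RNAs belong to several cellular machines. RNA polymerase I makes the long precursor of ribosomal RNA, whose external spacer is cut off and degraded. RNA polymerase III makes short stable RNAs: 7SK RNA (Rn7sk) holds the elongation kinase P-TEFb inactive, the RNAs of RNase P (Rpph1) and RNase MRP (Rmrp) trim tRNA and ribosomal RNA precursors, and the Y RNAs (Rny1, Rny3) are bound by the Ro60 protein. Terc, made by RNA polymerase II, is the template of telomerase, while Malat1 and Neat1 are long polymerase II transcripts that stay in the nucleus, in nuclear speckles and at paraspeckles.

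Gm26917 (ENSMUSG00000097971) is annotated as a single-exon long noncoding RNA of 3329 bases on the plus strand (GRCm38 chr17:39843013-39846341). In RefSeq, the 18S ribosomal RNA gene Rn18s-rs5 starts 12 bases after its end, so that its place is that of the external spacer of a ribosomal RNA precursor. The genes Gm42418 and AY036118, which lie within the following ribosomal RNA sequence, had 0 counts in all 14 libraries. The last 60 bases of Gm26917, which lead up to the 18S gene, are shown because this gene took the largest share of the counts; its GC content of 69.1% is set by runs such as these:

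Gm26917 bases 3270 to 3329: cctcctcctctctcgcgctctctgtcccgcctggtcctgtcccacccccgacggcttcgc

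The short RNAs are shown by the stretch that each is known for. In Rn7sk (chr9:78175303-78175633, minus strand, 331 bases) the capitals mark GATC, the letters of the motif that the P-TEFb inhibitor HEXIM1 binds. In Terc (chr3:96414437-96414859, minus strand, 423 bases) they mark the template of the telomere repeat. In Rmrp (chr4:43492788-43493058, minus strand, 271 bases) and Rpph1 (chr14:50807449-50807767, minus strand, 319 bases) they mark a run of 9 bases that both RNAs contain, the longest they share together with another of that length. All sequences were read from the GENCODE M21 transcripts of GRCm38, 5′ to 3′:

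Rn7sk bases 1 to 120: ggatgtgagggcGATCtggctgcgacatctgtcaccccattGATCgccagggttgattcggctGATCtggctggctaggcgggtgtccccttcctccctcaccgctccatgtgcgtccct
Terc bases 1 to 100: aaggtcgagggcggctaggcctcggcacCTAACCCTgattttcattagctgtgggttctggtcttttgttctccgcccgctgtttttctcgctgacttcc
Rmrp bases 181 to 269: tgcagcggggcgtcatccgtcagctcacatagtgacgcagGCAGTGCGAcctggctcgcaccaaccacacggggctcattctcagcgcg
Rpph1 bases 206 to 294: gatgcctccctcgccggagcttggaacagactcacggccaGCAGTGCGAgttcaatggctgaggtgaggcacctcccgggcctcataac

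The Y RNAs are printed whole, since their length of about 100 bases sets them apart from the other members and they had the lowest counts. The capitals mark the terminal run of T at which polymerase III stops. Rny1 (chr6:47788069-47788180, minus strand) and Rny3 (chr6:47781624-47781725, plus strand) lie 6343 bases apart and are transcribed toward each other:

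Rny1: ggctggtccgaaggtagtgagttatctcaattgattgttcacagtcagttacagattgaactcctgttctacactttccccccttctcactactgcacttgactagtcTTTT
Rny3: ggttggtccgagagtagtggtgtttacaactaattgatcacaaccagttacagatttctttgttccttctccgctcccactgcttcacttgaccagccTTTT

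Malat1 (chr19:5795690-5802672, minus strand, 6983 bases) and Neat1 (chr19:5824708-5845478, minus strand, 20771 bases) are neighbours, with 22035 bases between them. Near its 3′ end Malat1 holds U-rich runs and an A run (T stands for U here) that fold into the triple helix known to protect this transcript, which lacks a poly(A) tail. They are in capitals here because Malat1 was 1 of the 2 members that rose:

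Malat1 bases 6596 to 6705: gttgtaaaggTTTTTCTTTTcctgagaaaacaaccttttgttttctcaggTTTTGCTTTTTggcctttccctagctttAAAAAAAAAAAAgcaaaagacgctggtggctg

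GC content divided the members. It was 69.1% in Gm26917, 67.1% in Rpph1 and in Terc, 64.2% in Rmrp and 58.01% in Rn7sk, against a median of 47.1% over all genes. It was 47.3% in Neat1, 45.1% in Rny3, 43.8% in Rny1 and 42.5% in Malat1. Reads of some members cannot be assigned with certainty. The annotation places 233 of the 319 bases of Rpph1 on the same strand in Ccnb1ip1, which had at most 13 counts, and 124 of the 271 bases of Rmrp opposite to Ccdc107, which had at most 755. Near-identical copies in 11 other genes held 0.974 to 3.08% of the summed counts of Rn7sk and its copies, and 2 copies held up to 21.4% for Rny1.

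Total counts were 35016668 to 45877994 per library. A count of 3, taken as the floor of detection, was worth 0.0654 to 0.0857 counts per 1000000 counts (CPM). The 8 HSPC libraries fell into 2 sets that the genotypes did not follow. In WT replicates 1 and 2 and Mir139KO replicates 2 and 3, Gm26917 took 17.0 to 21.9% of the counts, and in WT replicates 3 and 4 and Mir139KO replicates 1 and 4 it took 32.7 to 35.4%. Differences from MLL-AF9 cells are therefore given against each set below. The sums of the marker genes fixed for each label were in place: Hoxa9, Hoxa10 and Meis1 summed to 18.5 to 37.9 normalized CPM in WT HSPCs and to 310.6 to 1176 in MLL-AF9 cells, and the 6 HSPC markers to 380.1 to 571.8 and 46.5 to 141.0. Of these 6, Ly6a went the other way, with a mean of 18.7 CPM in WT HSPCs and 27.0 in MLL-AF9 cells. HSPC libraries also held markers listed for other cell types, which need not come from mature cells. In WT HSPCs the highest of the neutrophil list were Mpo and Elane, with means of 5067 and 1408 CPM. In WT HSPCs and MLL-AF9 cells, the 5 erythroid markers summed to 767.7 to 1090 and 0.490 to 1.77 CPM (Hbb-bs and Car1 were at 0 in all MLL-AF9 cultures), the 4 B cell markers to 1604 to 2515 and 9.78 to 30.1, and the 5 neutrophil markers to 3703 to 11269 and 994.2 to 1968. The 4 T and NK cell markers summed to 72.9 to 141.1 and 1.74 to 11.6 CPM, the 4 monocyte and macrophage markers to 762.8 to 1645 and 255.4 to 652.7, and the 4 stromal and endothelial markers to 252.7 to 1689 and 13.7 to 108.6. Within the monocyte and macrophage list Adgre1 went the other way, with means of 23.8 and 67.3 CPM. The part of all these markers in the differences below was not tested, and in bulk RNA fewer cells of a type and less RNA per cell cannot be told apart.

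These 9 RNAs took a larger share of the sequencing output in HSPCs. Together they held 28.9 ± 10.9% of it in the WT group, 31.3 ± 8.38% in the Mir139KO group and 10.9 ± 0.852% in the MLL-AF9 group (mean ± SD of 4, 4 and 6 libraries). Without Gm26917, the other 8 members held 2.98 ± 1.01%, 3.56 ± 1.24% and 1.72 ± 0.516%. Within these 8 the make-up shifted: Malat1 and Neat1 summed to 0.0283 ± 0.0212% in WT HSPCs and to 0.713 ± 0.474% in MLL-AF9 cells, while the 6 short RNAs summed to 2.95 ± 1.03% and 1.01 ± 0.0798%. Malat1 and Neat1 together exceeded the 6 short RNAs in MLL-AF9 replicates 4 and 6, and stayed below them in the other cultures and in all HSPC libraries.

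**Figure D1:**
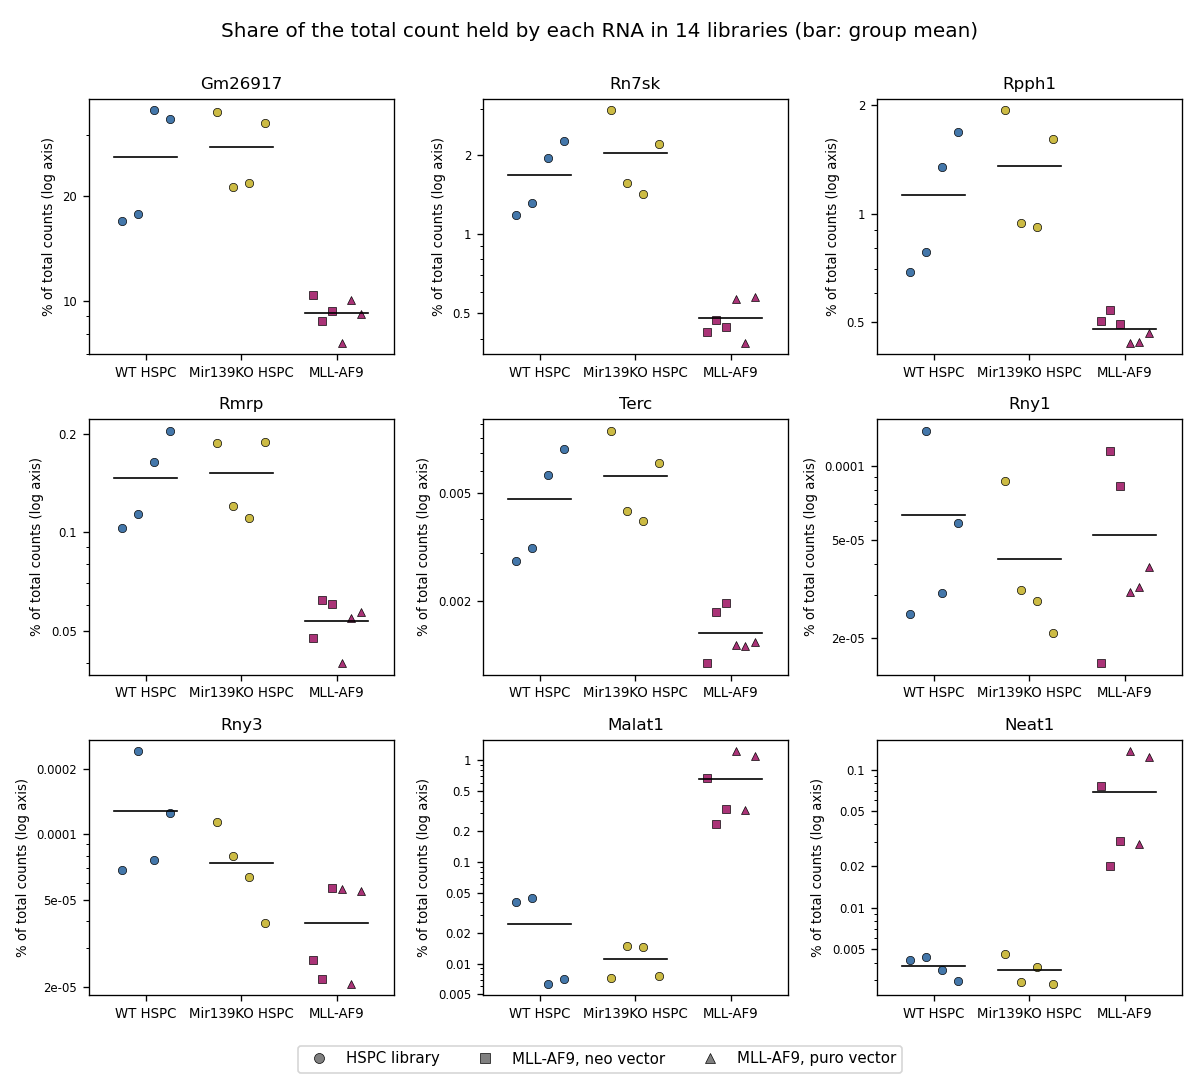
Percent of the total count (log axis) held by each of the 9 RNAs in every library, with circles for HSPC libraries, squares for neo and triangles for puro MLL-AF9 cultures, and a bar at each group mean. Gm26917 lies between 7.55 and 10.4% in MLL-AF9 cells and between 17.0 and 35.4% in HSPCs, Malat1 and Neat1 lie higher in MLL-AF9 cells, and the groups overlap for Rny1 and, with Mir139KO HSPCs, for Rny3.

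To compare the members with each other, levels were divided by exon length. This was the full annotated length, 20771 bases for Neat1, so a member present mainly as a shorter transcript is placed too low. Which transcripts were present, and how well the short RNAs were recovered, was not tested. Per kilobase, the order in WT HSPCs was Gm26917 (102669 ± 63952 CPM per kb, SD, n = 4), Rn7sk (65361 ± 36434), Rpph1 (46651 ± 30361), Rmrp (6991 ± 3980), Terc (149.7 ± 101.3), Malat1 (34.9 ± 23.4), Rny3 (14.4 ± 6.96), Rny1 (6.37 ± 4.11) and Neat1 (2.12 ± 0.341). The ranges of the first 3 overlapped, as did those of Malat1 and Rny3, of Rny3 and Rny1, and of Rny1 and Neat1. Rpph1 and Rmrp, Rmrp and Terc, and Terc and Malat1 did not overlap. In MLL-AF9 cells Malat1 reached 687.6 ± 420.9 CPM per kb (SD, n = 6), between Rmrp at 1532 ± 306.0, whose range it overlapped, and Terc at 27.7 ± 6.30, and Neat1 reached 24.7 ± 17.3, with a range that took in that of Terc. Rpph1 (11564 ± 1327) and Rn7sk (11045 ± 1370) overlapped there, below Gm26917 (21290 ± 3094).

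**Figure D2:**
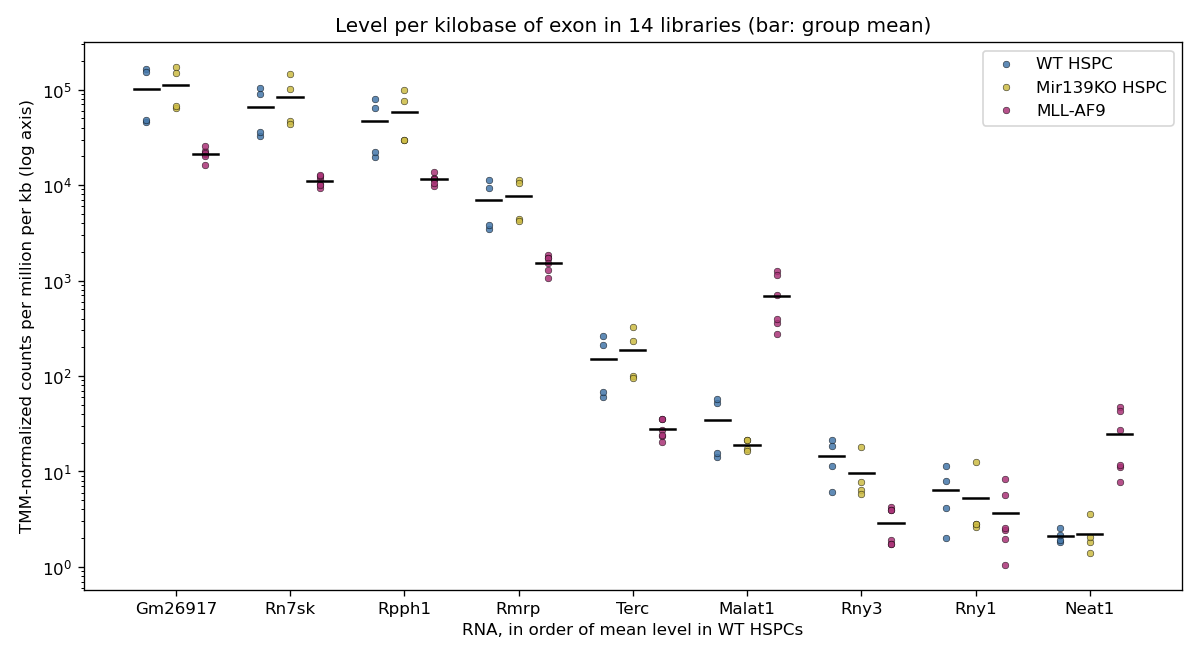
TMM-normalized CPM per kilobase of exon (log axis) for the 9 RNAs, in the order of their mean in WT HSPCs, with 1 point for each library and a bar at each group mean. In MLL-AF9 cells Malat1 rises to a mean of 687.6, between Rmrp and Terc, while the RNAs to the left of it lie lower than in HSPCs.

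The first question was how the transformed cells differed from WT HSPCs, the population they came from. Of the 9 members 6 were lower in MLL-AF9 cells, 2 were higher, and Rny1 did not pass the test (edgeR quasi-likelihood test, Benjamini-Hochberg adjusted p under 0.05 over all 17077 genes tested). Over all genes 29.4% were called lower and 32.8% higher. The median log2 fold change was -2.21 over the members and 0.14 over all genes. Called genes were therefore common throughout the transcriptome, and the members' count has to be read against these shares.

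Gm26917 was lower in every MLL-AF9 culture than in any HSPC library. Its share was 17.0, 17.8, 35.4 and 33.6% of the counts in WT replicates 1 to 4 and 35.1, 21.3, 21.9 and 32.7% in Mir139KO replicates 1 to 4, and in MLL-AF9 cells it ran from 7.55 to 10.4%. The 95% Wilson interval of the lowest WT share was 16.98 to 17.00%, so counting error was small beside the gap between libraries. Such intervals, like the floors, cover counting error only. As a normalized level it fell by 2.28 ± 0.40 on the log2 scale against WT HSPCs (SE, edgeR adjusted p = 0.00049), a 4.87-fold difference. With a correction for GC content, the difference was -1.34.

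Rn7sk, the most abundant of the short RNAs in WT HSPCs, was lower in every MLL-AF9 culture. Its level was 10703, 11932, 29738 and 34165 CPM in WT replicates 1 to 4. In MLL-AF9 cells the lowest, median and highest levels were 3109, 3628 and 4200 CPM, all under the lowest WT level. The fall was 5.98-fold (log2 -2.58 ± 0.36 SE, edgeR adjusted p = 0.000108). The members of its particle did not share 1 direction: of 7 genes tested, 1 was higher and 3 lower, beside 32.8% and 29.4% of all genes. Ccnt2, a cyclin of P-TEFb, rose from 24.4 ± 12.2 to 123.6 ± 24.7 CPM (SD, n = 4 and 6), whereas Mepce, which caps 7SK RNA, fell from 142.1 ± 62.3 to 30.7 ± 2.66 and the kinase Cdk9 from 114.6 ± 34.4 to 52.7 ± 7.04. The binding protein Larp7 had a log2 fold change of -0.46 and the inhibitor Hexim1 of -0.16, neither of which passed. Hexim2, also on the list, was called lower, at -1.06 (edgeR adjusted p = 0.017). With GC correction 1 of the 7 genes was higher and 2 were lower.

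The RNAs of RNase P and RNase MRP fell together. Rpph1 was at 6226, 7134, 20642 and 25524 CPM in WT replicates 1 to 4. In MLL-AF9 cells it ran from 3151 to 4394 around a median of 3710, with no overlap (log2 -2.03 ± 0.39 SE, edgeR adjusted p = 0.000882). Its separation rested in part on the WT libraries with a high Gm26917 share: the log2 fold change was -0.92 against WT replicates 1 and 2 and -2.76 against replicates 3 and 4, called both times. With GC correction it was -1.02. Rmrp was at 932.2, 1036, 2514 and 3096 CPM in the WT replicates and at 287.2 to 508.2 CPM in MLL-AF9 cells, with a median of 440.8 and no overlap (log2 -2.21 ± 0.36 SE, edgeR adjusted p = 0.000308). Of 9 genes for protein subunits tested none rose and 2 fell, beside 32.8% and 29.4% of all genes: Pop5 from 30.9 ± 14.3 to 8.91 ± 2.18 CPM and Rpp21 from 15.4 ± 5.81 to 4.97 ± 1.52.

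Terc fell 5.45-fold, although at levels far below those of the RNAs above. The WT replicates had 25.3, 28.6, 89.2 and 110.1 CPM, which are 1224 to 2964 reads. MLL-AF9 cells had 8.69 to 15.1 CPM with a median of 10.9, which are 446 to 830 reads, and the groups did not overlap (log2 -2.45 ± 0.41 SE, edgeR adjusted p = 0.000356). Among 9 telomerase genes tested 5 fell and 1 rose, beside 29.4% and 32.8% of all genes. Nop10, of the H/ACA core that stabilizes Terc, fell from 71.5 ± 17.1 to 21.6 ± 11.3 CPM, and Wrap53, which carries telomerase RNA to Cajal bodies, from 43.0 ± 16.4 to 13.4 ± 3.60. The exonuclease Parn, which matures the end of Terc, rose from 43.9 ± 10.4 to 73.8 ± 9.81, and the catalytic gene Tert had a log2 fold change of 0.48 that did not pass. Scaled to total counts, 2 of the 9 fell and 2 rose. The median log2 fold change of the 9 was then -0.08 beside 0.69 over all genes, and -0.74 beside 0.14 with TMM.

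The Y RNAs were measured from few reads. Both had a negative log2 fold change, but only Rny3 passed the test. Their ratio, which compares them directly, is given below. Rny3 had 0.621, 2.19, 1.17 and 1.89 CPM in WT replicates 1 to 4, from 30 to 95 reads, and 0.176 to 0.436 CPM in MLL-AF9 cells, from 9 to 24 reads, without overlap (log2 -2.30 ± 0.46 SE, edgeR adjusted p = 0.00117). Rny1 had 0.228, 1.27, 0.467 and 0.892 CPM in WT replicates, and 0.117 to 0.944 CPM in MLL-AF9 cells with a median of 0.280, so that the groups overlapped (log2 -0.80 ± 0.61 SE, edgeR adjusted p = 0.272). With GC correction Rny1 was called lower as well, at -1.82 (edgeR adjusted p = 0.0238). How well RNAs of this length are recovered by the library method was not tested. Of their partners, Ssb, which encodes the La protein that binds the terminal U run, rose from 14.8 ± 10.6 to 87.4 ± 34.7 CPM, and Trove2, the gene for Ro60, from 2.53 ± 1.13 to 7.53 ± 3.37. With GC correction Ssb rose by 0.81, and Trove2 was no longer called and had the opposite sign, at -0.50.

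Malat1 and Neat1 moved the other way. Malat1 had 363.2, 405.1, 98.0 and 108.5 CPM in WT replicates 1 to 4, and 4902, 1924, 2508, 8782, 2778 and 7915 CPM in MLL-AF9 replicates 1 to 6. The lowest culture lay above the highest HSPC library, and the difference was 19.5-fold (log2 4.28 ± 0.67 SE, edgeR adjusted p = 0.00023). Its rank by mean share rose from 471 in WT HSPCs to 3 in MLL-AF9 cells. Neat1 had 37.9, 39.9, 53.8 and 44.4 CPM in WT replicates 1 to 4 and 559.2, 162.6, 233.9, 977.8, 245.3 and 902.4 in MLL-AF9 replicates 1 to 6, again without overlap (log2 3.53 ± 0.57 SE, edgeR adjusted p = 0.000299). Its rank went from 4172 to 84. Both were called under all the settings tried.

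Genes for proteins of the bodies that these RNAs belong to did not follow them as a group at the RNA level. Of 7 paraspeckle genes tested 2 rose and 2 fell, beside 32.8% and 29.4% of all genes: Pspc1 rose from 32.3 ± 10.8 to 118.6 ± 27.0 CPM and Hnrnph3 from 10.4 ± 3.31 to 28.9 ± 5.25, while Dazap1 fell from 197.9 ± 58.9 to 85.2 ± 21.2 and Nono from 277.2 ± 2.81 to 143.4 ± 57.1. With GC correction 1 rose and 3 fell, and neither Pspc1 nor Dazap1 was called. Nono was not called when scaled to total counts (log2 -0.41, edgeR adjusted p = 0.285) or to total counts without Gm26917 (log2 -0.68, edgeR adjusted p = 0.0606). Of 5 nuclear speckle genes tested 1 rose, Pnn, from 22.9 ± 12.2 to 56.6 ± 18.5 CPM, and it was not called with GC correction, when 0 rose and 2 fell. The median log2 fold change was -0.02 over the paraspeckle genes and 0.07 over the speckle genes, beside 0.14 over all genes.

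**Figure D3:**
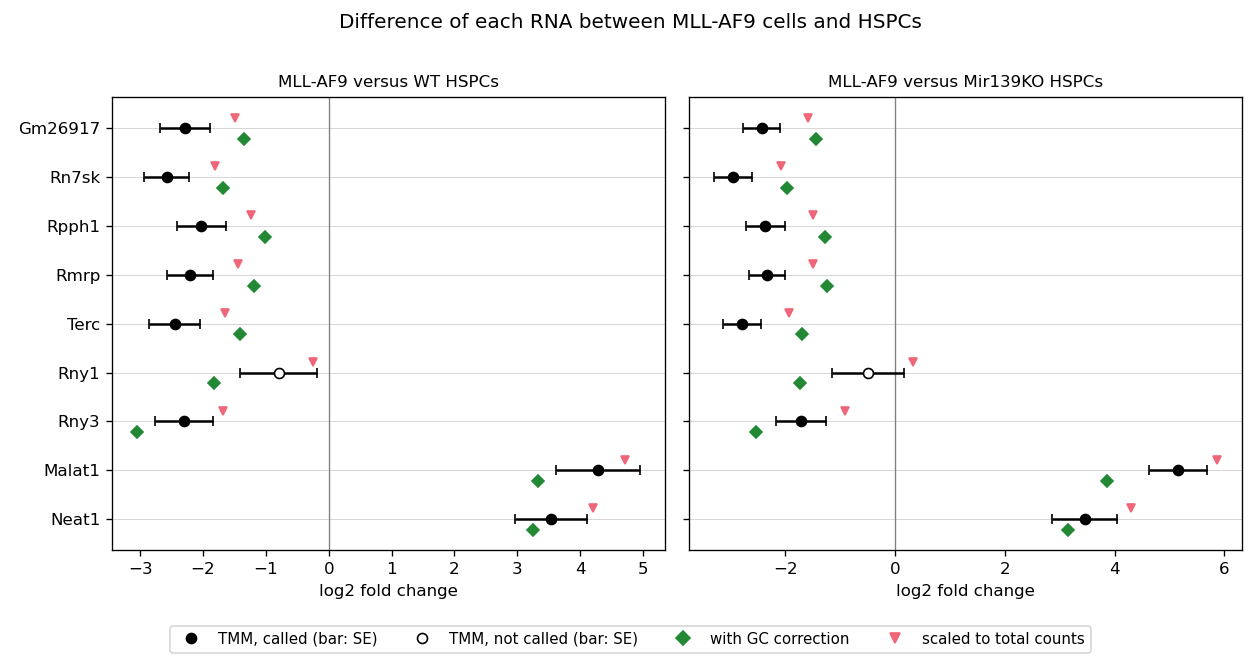
Log2 fold change of each RNA in MLL-AF9 cells against WT HSPCs (left) and Mir139KO HSPCs (right), as filled circles where called and open circles where not, with bars of 1 SE from edgeR, diamonds with GC correction and triangles when scaled to total counts. Gm26917 and the 4 GC-rich short RNAs lie between -2.03 and -2.96 and move toward 0 with either change, the Y RNAs move away from 0 with GC correction, and Malat1 and Neat1 lie between 3.15 and 5.86 on all 3 scales.

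The comparison with Mir139KO HSPCs used the same 6 cultures, so it is no independent repeat. Again 6 members were lower, 2 were higher and Rny1 was not called, beside 31.9% of 16953 genes called lower and 37.3% higher. Log2 fold changes were -2.43 for Gm26917, -2.96 for Rn7sk, -2.37 for Rpph1, -2.34 for Rmrp and -2.79 for Terc. Rny3 was at -1.71 (edgeR adjusted p = 0.00516), and its share of counts overlapped between the groups although its normalized level did not. The call was lost when scaled to total counts (-0.91, edgeR adjusted p = 0.0875) and against Mir139KO replicates 2 and 3 alone (-1.33, edgeR adjusted p = 0.0553). Rny1 was at -0.49 (edgeR adjusted p = 0.513) and changed sign to 0.35 when Mir139KO replicate 1 was left out. Malat1 rose by 5.15 ± 0.54 and Neat1 by 3.45 ± 0.59 on the log2 scale (SE).

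The 2 sets of HSPC libraries changed the size of the differences but not their direction among the called members. For the GC-rich short RNAs the log2 fold change was further from 0 against WT replicates 3 and 4 than against WT replicates 1 and 2: -3.24 and -1.69 for Rn7sk, -2.87 and -1.31 for Rmrp, and -3.20 and -1.27 for Terc. Malat1 went from 3.59 against replicates 1 and 2 to 5.45 against replicates 3 and 4. Neat1 was at 3.67 and 3.29. Neutrophil markers summed to 9920 to 15778 CPM in the 4 HSPC libraries with the high Gm26917 share and to 3703 to 7775 CPM in the other 4. On this scale, monocyte and macrophage markers (1487 to 1824 and 762.8 to 1105 CPM) and T and NK cell markers (116.0 to 159.5 and 72.9 to 92.6 CPM) also separated these sets without overlap. The other marker lists overlapped. The TMM factors differed too, at 0.615 to 0.660 in the first set and 0.9696 to 1.106 in the other. A lower factor raises all CPM levels of a library. The separation is thus shown for TMM-normalized levels only, not for shares of the total counts. The part of these markers was not tested. The sets were split by the share of Gm26917 itself, so no such value is given for it.

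**Figure D4:**
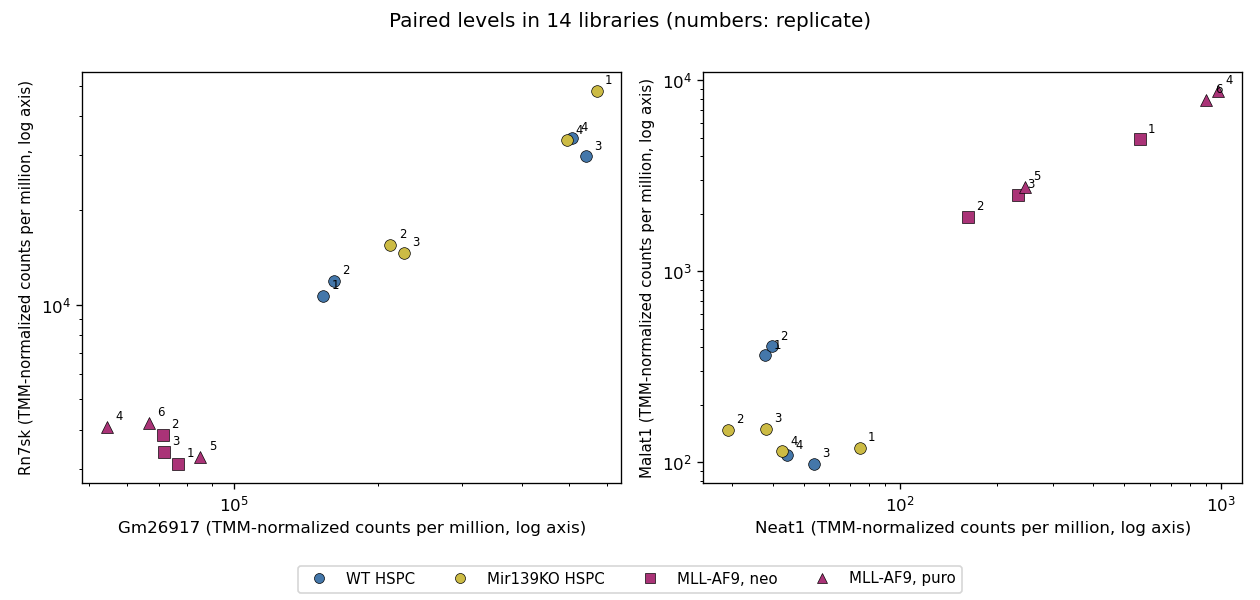
Levels of Rn7sk against Gm26917 (left) and of Malat1 against Neat1 (right) in TMM-normalized CPM on log axes, 1 point for each library, numbered by replicate. On the left the HSPC libraries form 2 sets, each with libraries of both genotypes, above the MLL-AF9 cultures. On the right MLL-AF9 cultures 1, 4 and 6 lie above cultures 2, 3 and 5 on both axes.

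GC content was tied to the direction of change in the other genes as well. Among genes outside the list whose transcript had at least 58% GC, 47.7% of 1533 were called lower and 17.5% higher in MLL-AF9 cells against WT HSPCs, with a median log2 fold change of -0.84. Among those with 42 to 48% GC, 14.6% of 4958 were lower and 40.9% higher, with a median of 0.68. Genes with under 500 bases of exon were more often lower (51.5% of 807) than higher (22.9%). These shares describe the transcriptome around the members, and the part of GC content in the members' differences was not tested beyond the GC-corrected fits. Both directions of the pattern stayed after that correction, with log2 fold changes of -1.69 for Rn7sk, -1.20 for Rmrp, -1.41 for Terc, -3.05 for Rny3, 3.33 for Malat1 and 3.25 for Neat1.

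Ratios between members within a library do not depend on scaling. The ratio of Rn7sk to Rpph1 reads was above 1 in every HSPC library, with a log2 ratio of 0.62 ± 0.17 for WT and 0.60 ± 0.11 for Mir139KO (SD over 4 libraries each). The MLL-AF9 value was -0.01 ± 0.28 (SD, n = 6), below all HSPC libraries, and within that group replicates 4 and 6 had 0.38 and 0.31 against -0.25 to -0.16 in the others. The difference from WT was -0.63 with an exact permutation p of 0.00952, two-sided, which is the smallest that 6 against 4 samples can give. Adjusted over the 16 ratio comparisons made, p was 0.0508, so it missed the threshold (exact permutation test). The difference from Mir139KO HSPCs was -0.62, with the same p and adjusted p (exact permutation test).

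The ratio of Malat1 to Neat1 was nearly constant in MLL-AF9 cells even though both levels varied. Its log2 value was 3.32 ± 0.20 there (SD, n = 6), against 2.19 ± 1.30 for WT and 1.601 ± 0.73 for Mir139KO (SD over 4 libraries each). WT replicates 1 and 2, at 3.26 and 3.34, lay within the range of the cultures, and WT replicates 3 and 4, at 0.87 and 1.29, lay far below. The difference of MLL-AF9 cells from Mir139KO HSPCs was 1.72 without overlap (exact permutation p = 0.00952, adjusted 0.0508), and that from WT was 1.13 (exact permutation p = 0.124, adjusted 0.283).

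None of the 16 ratio comparisons passed after adjustment with the pseudocount of 0.5. The log2 ratio of Rmrp to Rpph1 was -2.90 ± 0.16 in WT, -3.12 ± 0.17 in Mir139KO and -3.17 ± 0.20 in MLL-AF9 cells (SD over libraries). The difference of MLL-AF9 cells from WT was -0.27 (exact permutation p = 0.0952, adjusted 0.254), and single libraries ran from -2.74 in WT replicate 1 to -3.46 in MLL-AF9 replicate 4. The ratio of Rny1 to Rny3 was higher in MLL-AF9 cells than in WT HSPCs by 1.39, but its spread in MLL-AF9 cells was 1.20 (SD, n = 6) and the adjusted p was 0.0762 (exact permutation test). With a pseudocount of 5 the difference was 1.20 and passed (exact permutation adjusted p = 0.0381). Replicate 2 had 48 reads of Rny1 and 9 of Rny3, a log2 ratio of 2.35.

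**Figure D5:**
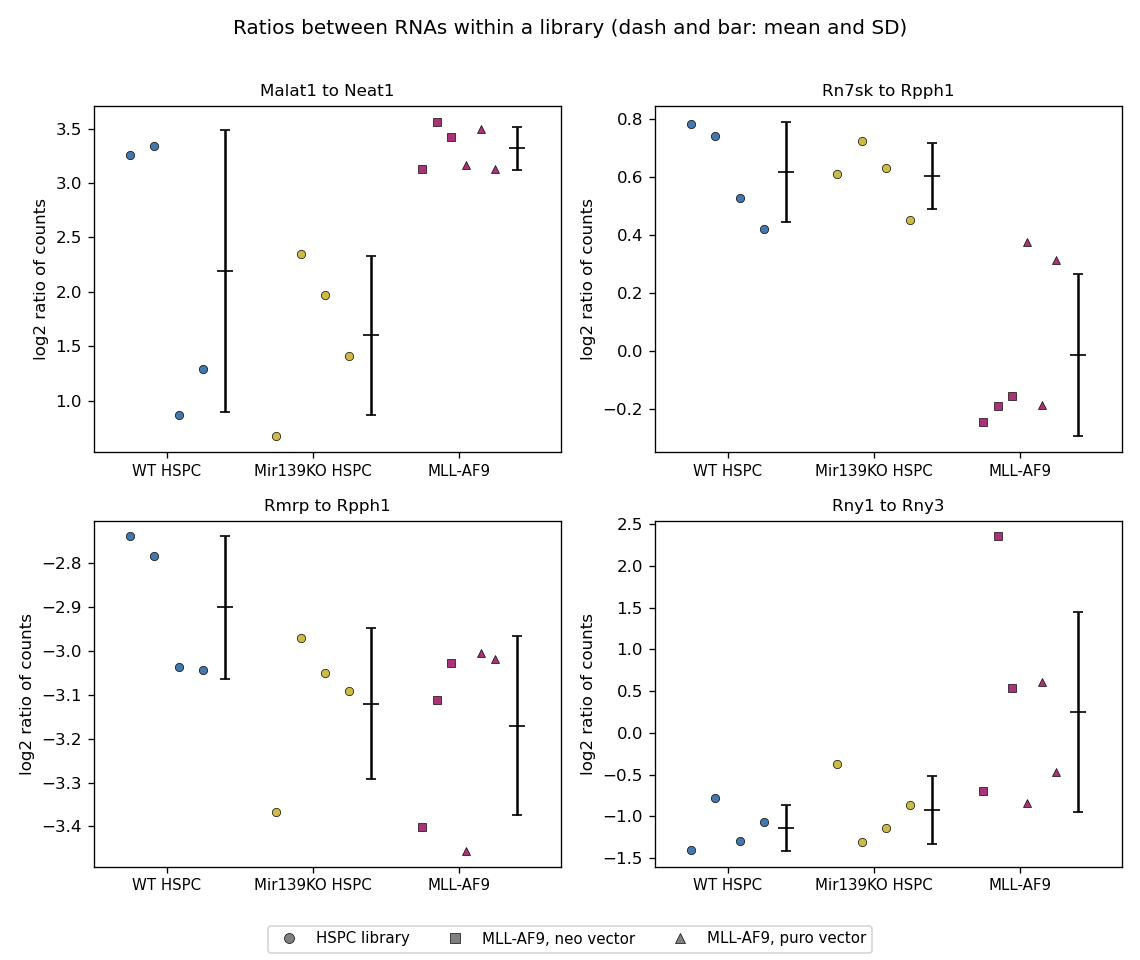
Log2 ratio of read counts between members in each library for 4 pairs, with circles for HSPC libraries, squares for neo and triangles for puro cultures, and the mean with its SD at the right of each group. The Rn7sk to Rpph1 ratio of the MLL-AF9 cultures lies below that of all HSPC libraries, and the Malat1 to Neat1 ratio of the cultures is held within 3.13 to 3.56.

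The genotypes were compared to ask whether loss of Mir139 changes these RNAs in HSPCs. No member passed, and no gene did: 0 of 15056 genes were called by edgeR, which is 0% (86 had an unadjusted p under 0.05), and DESeq2 called 0 as well. More genes than these 86 would fall under 0.05 if no gene differed, so the p-values ran high. Each genotype held libraries of both Gm26917 sets, and the part of that spread was not tested. The missing calls therefore do not show that the genotypes are alike. No member had an unadjusted p under 0.05. The groups overlapped for all 9. Malat1 went from 363.2, 405.1, 98.0 and 108.5 CPM in WT to 119.1, 147.7, 149.9 and 114.0 in Mir139KO replicates 1 to 4 (log2 -0.89 ± 0.47 SE, edgeR adjusted p = 1.00). WT replicates 1 and 2 were above all Mir139KO libraries while WT replicates 3 and 4 were below them. For Gm26917 the difference was 0.13 ± 0.63, for Rn7sk 0.35 ± 0.56 and for Neat1 0.05 ± 0.31 on the log2 scale (SE).

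Among the MLL-AF9 cultures the vector was compared. Of 16503 genes 0.873% were called, none of them a member. An unadjusted edgeR p under 0.05 was found for 2259 of these genes and for no member. Malat1 was higher with puro than with neo by 1.07 ± 0.54 and Neat1 by 1.17 ± 0.66 on the log2 scale (SE, edgeR adjusted p = 0.46 and 0.52). Puro replicates 4 and 6 were the most alike pair of cultures, with a chi-square of their counts over genes of 9.002 per degree of freedom against 62.5 to 413.7 for the other pairs, which is still above sampling noise. The comparisons with HSPCs and the ratio tests counted them as 2 samples. Among Mir139KO libraries, replicates 2 and 3 were the most alike, at 20.87 against 66.88 to 437.4 for the other pairs. With cultures 4 and 6 summed into 1 sample the differences between the vectors were 0.85 for Malat1 and 0.91 for Neat1 (edgeR adjusted p = 0.92 and 0.97), and 5 genes were called in place of 144. The spread ran across the vectors, since Malat1 was high in replicates 1 (neo), 4 and 6 (puro) and lower in replicates 2 and 3 (neo) and 5 (puro), and Neat1 had the same order of high and low cultures. The sum of Hoxa9, Hoxa10 and Meis1 was 1173 and 1176 CPM in replicates 4 and 6 and 310.6 to 646.3 in the others. For Rpph1 the log2 difference was -0.22 ± 0.15 (SE, edgeR adjusted p = 0.59), and its normalized level overlapped between the vectors, although its share of counts did not, at 0.4934 to 0.538% with neo and 0.437 to 0.464% with puro.

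Genes for the enzymes that make these RNAs were followed at the RNA level, through lists fixed by name. Of 15 genes of RNA polymerase I and its factors, 9 were lower in MLL-AF9 cells than in WT HSPCs and 1 higher, with a median log2 fold change of -1.33, beside 29.4% lower and 32.8% higher over all genes and a median of 0.14. The count was the same with GC correction. Scaled to total counts it was 6 lower and 2 higher, with a median of -0.70 beside 0.69 over all genes. Taf1c and Taf1d, of the factor that selects the ribosomal RNA promoter, fell from 46.6 ± 24.7 to 8.66 ± 1.25 and from 634.3 ± 343.8 to 121.0 ± 29.9 CPM, while Taf1b of the same factor rose from 16.3 ± 9.44 to 44.5 ± 11.5. Of 26 genes of RNA polymerase III and its factors tested, 11 were lower and 6 higher, beside the same shares over all genes, with a median of -0.58. Scaled to total counts, 4 were lower and 6 higher, and the median was 0.05 beside 0.69 over all genes, so the list stayed below the transcriptome. The repressor Maf1 fell from 116.7 ± 63.6 to 25.9 ± 3.82 CPM and Gtf3c5, a subunit of TFIIIC, from 24.6 ± 10.1 to 6.43 ± 1.27. Bdp1, a subunit of TFIIIB, rose from 25.5 ± 14.2 to 114.1 ± 39.7, and Snapc1, of the complex that binds the promoters of Rn7sk and the other genes with upstream elements, from 4.27 ± 2.56 to 15.5 ± 5.91, the latter not called with GC correction.

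Noncoding RNAs outside the group were counted in the same way. Of 9 structural RNAs tested outside the list, 6 were lower and 0 higher against WT HSPCs, with a median log2 fold change of -1.90. Over all genes 29.4% were lower, but among genes with under 500 bases of exon it was 51.5%, and among the 17 genes of the annotation class misc_RNA 58.8%. These classes leave out only the 9 members, so they can hold the structural RNAs counted here and are no separate background. The 6 lower RNAs included Rn7s1 (log2 -2.04), Rn7s2 (-1.90) and Rn7s6 (-2.16), and whether these share reads was not tested. The Cajal body RNA Scarna2 fell from 745.3 ± 505.7 to 112.5 ± 11.8 CPM. The mitochondrial ribosomal RNA mt-Rnr1 fell from 209.9 ± 383.5 to 8.67 ± 6.05 CPM, with a spread in WT larger than its mean, and did not pass against Mir139KO HSPCs (log2 -0.73, edgeR adjusted p = 0.262), except with GC correction (-2.99, edgeR adjusted p = 0.00052). The libraries were depleted of ribosomal RNA, and the part of that step in the mt-Rnr1 counts was not tested. Mitochondrial genes together went from 0.450 ± 0.367% of the counts without Gm26917 in WT HSPCs to 1.52 ± 0.562% in MLL-AF9 cells (SD). Of 9 long noncoding RNAs tested outside the list 3 rose and 2 fell, beside 32.8% and 29.4% of all genes. Pvt1, next to Myc, rose from 25.9 ± 13.7 to 365.3 ± 135.4 CPM, and Snhg12 and Zfas1, hosts of small nucleolar RNAs, fell from 23.3 ± 7.496 to 9.63 ± 3.32 and from 38.3 ± 8.36 to 20.1 ± 7.05. The imprinted Meg3 was called too, at 3.39 ± 4.15 CPM in MLL-AF9 cells, but its mean of 0.0301 CPM in WT HSPCs was under the floor of 3 counts, so no fold is given. Scaled to total counts 5 rose and 0 fell, with a median of 1.07 beside 0.69 over all genes. With GC correction 4 rose and 4 fell.

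Across the 14 libraries the members formed 2 patterns, given here as a description since the libraries share the difference between groups. Pearson's r of log2 levels was 0.976 to 0.991 among Gm26917, Rn7sk, Rpph1, Rmrp and Terc, and 0.933 between Malat1 and Neat1. Between those 5 and Malat1 it was -0.943 to -0.905. Rny1 followed the others least, at 0.383 to 0.602 with the short RNAs and Gm26917. Of 8535 genes with enough counts, the 2 most like Gm26917 were Arl2 (r = 0.996) and Mpv17l2 (0.996), those most like Rn7sk were Irf3 (0.996) and Orai3 (0.996), those most like Rpph1 were Akt1s1 (0.996) and Fkbp8 (0.995), those most like Rmrp were Mrps24 (0.994) and Adprhl2 (0.994), and those most like Terc were Rpl41 (0.996) and Znhit2 (0.995). Lpp (0.993) and Esr1 (0.993) were most like Malat1, and Cyp4f13 (0.986) and Fggy (0.977) most like Neat1. For the Y RNAs the likeness was lower, with Gp1ba (0.909) and Gm25911 (0.894) for Rny3 and Chchd6 (0.736) and Gm25360 (0.708) for Rny1.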

How the data were processed

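RNA was measured in 14 samples: 4 WT HSPC, 4 Mir139KO HSPC and 6 MLL-AF9 samples, grouped and numbered from the sample titles and, for the vector, the labels. Total RNA isolated with TRIzol (500 ng was used) was made into libraries with a kit that removes ribosomal RNA with probes (RiboErase), which can also change how much of a ribosomal precursor is recovered.

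The deposited values are raw counts per gene. The authors aligned reads with STAR 2.5.3e to GRCm38 (mm10) and counted them with featureCounts 1.6.0. The strand setting and the handling of reads on several genes or places are not given in the sources used here, which bears on members with copies or overlapping genes. A further deposited table of counts was not used, since it also holds samples of another series.

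Counts were tested with edgeR 4.0.16 and limma 3.58.1 under R 4.3.3 (TMM, robust quasi-likelihood F test, 2 groups at a time, at least 10 counts in as many samples as the smaller group, Benjamini-Hochberg over all genes tested, called under 0.05). The SE was taken from the size of the log2 fold change over the root of its F statistic. Levels are CPM with TMM factors over all 14 libraries, and correlations used log2 CPM with a prior count of 2. Ratios used a pseudocount of 0.5 and two-sided exact permutation tests (scipy 1.17.1), adjusted over 16 comparisons. Gene models, lengths, GC content and sequences came from GENCODE M21 on GRCm38, matched for 52403 of 52550 genes, and the 18S gene from RefSeq (GRCm38.p6). GC content was that of the longest transcript. The authors counted with GENCODE M15. Near copies were found with blastn 2.17.0 (at least 90% identity over 50% of the length). The fitting step was tested on simulated data.

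The members, gene lists and tests were chosen with earlier results of these data known. Named were all members, up to 2 called genes with the largest rise and 2 with the largest fall against WT HSPCs from each list, and for each member the 2 most correlated genes of mean log2 CPM of at least 3. Larp7, Hexim1, Hexim2, Tert and the gene classes by GC content and length were added after the values were seen. The other settings were an adjusted p under 0.01, RLE factors, total counts, total counts and TMM without Gm26917, DESeq2 1.42.0, no filter, all 14 samples, a replicate block, GC correction (natural spline, 5 degrees of freedom per sample, as an offset) with and without the block, each vector alone, HSPC libraries under or over 25% Gm26917, replicates 4 and 6 summed, a ratio pseudocount of 5 and each replicate left out.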

Additional observations from a re-analysis of the deposited data

Results flagged for a closer look

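Of 39 groups of values checked (9 levels and 4 ratios in 3 groups), 1 held a sample far from the rest by Dixon's test at 95%, fewer than the about 1 in 20 that chance gives. In Mir139KO HSPCs the highest Rny1 level, in replicate 1, had a gap to the next of 0.946 of the whole range on the log2 scale, above the critical value for 4 samples. That library had 33 reads of Rny1, against 8 to 12 in the other Mir139KO libraries.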

How the results depend on the processing

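The number of members called was 7 to 9 against WT HSPCs and 6 to 9 against Mir139KO HSPCs under all the alternatives, and 0 in the other comparisons. Many other genes were called under these settings too. Against WT libraries under and over 25% Gm26917 it was 7665 of 18331 and 11452 of 18244 genes. Against Mir139KO libraries it was 9311 of 18251 and 10907 of 18132. DESeq2 called 11139 of 17077 genes against WT HSPCs and 1326 of 16503 between the vectors. Only 8 members were tested with TMM without Gm26917 and with HSPC libraries under or over 25% Gm26917, where 7 were called in each case but 1: 6 against Mir139KO libraries under 25%. Leaving out each replicate in turn gave 8 and 8. Scaling to total counts moved the all-gene median of log2 fold changes by 0.55 against WT and by 0.69 against Mir139KO HSPCs. Rny1 against Mir139KO HSPCs reversed to 0.33 with total counts and to 0.37 against libraries under 25% Gm26917, and ran from -0.91 to 0.35 with a replicate left out. With GC correction and the replicate block, Gm26917 (-1.28) and Rpph1 (-0.90) were not called against WT HSPCs, and 7 members were.

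Replicate numbers did not pair the samples (correlations of deviations between WT and Mir139KO from -0.58 to 0.64, neo and puro from -0.31 to 0.45). The replicate block alone gave 8, 8, 0 and 0 members called, and 9300 in place of 10630 genes against WT HSPCs.

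Between the genotypes Neat1 reversed to -0.10 with total counts, -0.0365 with total counts without Gm26917, -0.0279 with the replicate block and -0.0261 with the block and GC correction. With a replicate left out, ranges crossed 0 for Gm26917 (-0.14 to 0.45), Rn7sk (-0.0381 to 0.656), Rpph1 (-0.0511 to 0.702), Rmrp (-0.13 to 0.45), Terc (-0.0791 to 0.718), Rny1 (-1.22 to 0.11) and Neat1 (-0.27 to 0.22). Between the vectors Rn7sk reversed to -0.0354 with GC correction, and Gm26917 ran from -0.248 to 0.0404 with a replicate left out.

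The difference in the Rny1 to Rny3 ratio between MLL-AF9 and WT HSPCs passed with a pseudocount of 5 (1.20, exact permutation adjusted p = 0.0381). With a replicate left out, the difference in the Rmrp to Rpph1 ratio ran from -0.132 to 0.00713 against Mir139KO HSPCs and from -0.0900 to 0.169 between the vectors, and that in the Rn7sk to Rpph1 ratio from -0.0806 to 0.0398 between the genotypes. The cause of these changes was not tested. Depth limits the Y RNAs, with 6 to 95 reads per library.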
